A study of Homo sapiens with 16 samples.

Results

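The nuclear genes of the mitochondrial respiratory chain and of ATP synthase were followed on gene expression arrays of Caco-2 cells, an established human colon carcinoma line used as a model of the intestinal epithelium. Members were taken by the gene name on the array, namely the NDUFA, NDUFB, NDUFC, NDUFS and NDUFV names of complex I, the UQCR names of complex III, COX4 to COX8 of complex IV and the ATP5 names of ATP synthase. The rule found 78 of the 27719 gene names on the array, 38 of complex I, 7 of complex III, 17 of complex IV and 16 of ATP synthase, on 109 probes. Each gene was read from its brightest probe. The 16 one-colour arrays held 4 conditions of undifferentiated Caco-2 cells, each in 4 independent experiments, after 6 h in medium with reduced serum. MED-CTL cells received the medium alone, p31-43 cells a synthetic gliadin peptide at 150 µg/ml, PT cells a blank digest of pepsin and trypsin made without a substrate, and PT-G cells gliadin digested with the same enzymes. All 16 arrays thus come from 1 cell line, and the doses of PT and PT-G are not given in the sources used here.

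The respiratory chain passes electrons from NADH and succinate to oxygen and pumps protons across the inner mitochondrial membrane, and ATP synthase uses the return of these protons to make ATP. Complex I oxidises NADH, complex III passes electrons from ubiquinol to cytochrome c, and complex IV (cytochrome c oxidase) hands them to oxygen. Core subunits carry the redox centres or the catalytic sites, while small accessory subunits surround them, and a few core subunits are encoded by mitochondrial DNA and do not fall under the rule. Absorptive cells of the intestine spend much ATP on transport. Some names match the rule without being structural subunits. COX4NB is now called EMC8, a member of an endoplasmic reticulum membrane complex, COX7A2L takes part in joining complexes III and IV, ATP5S is an ATP synthase coupling factor by name, and NDUFA4L2 is a paralogue of NDUFA4. NDUFA4 itself was named for complex I and is now placed in complex IV.

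Promoters are shown for the member that was affected in the comparisons with MED-CTL (COX5A) and for a pair of accessory subunits whose level varied widely between arrays (NDUFA3 and ATP5I, now ATP5ME). They are the 250 bases before the RefSeq transcription start (GRCh38.p14), written 5′ to 3′ in the orientation of the gene. Capitals mark matches to the NRF1 motif, a sequence bound by nuclear respiratory factor 1, a regulator of mitochondrial genes. The COX5A sequence lies at chr15:74938074-74938323 on the minus strand, NDUFA3 at chr19:54102605-54102854 on the plus strand and ATP5I at chr4:674277-674526 on the minus strand.
COX5A: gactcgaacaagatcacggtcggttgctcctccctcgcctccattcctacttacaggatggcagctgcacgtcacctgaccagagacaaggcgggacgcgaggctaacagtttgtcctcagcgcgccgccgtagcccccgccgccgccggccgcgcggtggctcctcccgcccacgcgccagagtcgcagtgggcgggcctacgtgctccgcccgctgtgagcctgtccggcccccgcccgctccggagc
NDUFA3: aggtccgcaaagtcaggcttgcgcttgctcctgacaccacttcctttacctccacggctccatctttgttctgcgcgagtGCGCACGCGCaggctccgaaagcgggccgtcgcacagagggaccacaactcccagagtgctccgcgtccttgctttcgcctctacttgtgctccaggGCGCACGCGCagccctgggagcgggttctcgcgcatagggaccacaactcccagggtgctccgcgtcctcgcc
ATP5I: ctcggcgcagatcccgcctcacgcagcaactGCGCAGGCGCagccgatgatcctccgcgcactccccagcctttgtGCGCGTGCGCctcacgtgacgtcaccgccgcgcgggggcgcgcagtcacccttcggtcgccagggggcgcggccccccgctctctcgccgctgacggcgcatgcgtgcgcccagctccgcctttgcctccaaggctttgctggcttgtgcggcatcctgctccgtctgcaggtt

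Of the 78 members, 77 were matched to a current symbol through their transcript accession, and 63 have a promoter in the RefSeq table. On either strand of these 250 bases, the NRF1 motif (GCGCA and GCGC with any 1 base between them) was found in 11 of 63 members (17.5%) and in 7.65% of all 15843 protein-coding promoters of the same length. The motif CCGGAAG of ETS factors, which include GABPA (nuclear respiratory factor 2), was found in 14 members (22.2%) and in 11.8% of all promoters. The YY1 motif ATGGCGG was in 4 members (6.35%) against 3.09%, and the motif TNAAGGTCA of the oestrogen-related receptors in 1 member (1.59%) against 0.562%. None of the 4 motifs was found in the COX5A window, and NDUFA3 and ATP5I had 2 NRF1 matches each. Other members whose level varied widely between arrays went both ways. COX6A2, which varied most, had none of the 4 motifs, nor had NDUFB1 and ATP5G1, while NDUFA11 had the NRF1 motif. A link between motifs and levels was not tested. These are matches of letters, with no measurement of binding.

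The arrays fall into 4 runs, given by the date in the names of the scanner files, with 1 array of each condition in each run, and they lay on 5 slides. Runs 1 and 2 lay on slides 1 and 2, and MED-CTL replicate 1 belonged to run 2 and MED-CTL replicate 2 to run 1. In run 3 the MED-CTL, p31-43 and PT-G arrays lay on slide 3 and the PT array on slide 4, and in run 4 the p31-43 array lay on slide 4 and the others on slide 5. Slides 1 and 2 shared a scan day, as did slides 3 and 5, and slide 4 was scanned on another day. Median raw intensities were 153 to 410 over local backgrounds of 48 to 65, the lowest on MED-CTL replicate 3, which lay on slide 3. Epithelial markers were as labelled: 9 of 10 on the array, VIL1, CDH1 and the keratins among them, were well above background on all 16 arrays, and CDX1 on 1. Of 20 markers of other cell types, 10, with ACTA1 among them, were well above background on all arrays. Another 6, with CDH5, COL1A2, PTPRC, SNAP25 and SYT1 among them, were so on none. These markers thus went both ways, and the presence of other cell types was not tested.

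Nearly all members were well expressed. Of the 78 genes, 74 were well above background on all 16 arrays. The remaining 4 are isoforms or paralogues known from other tissues or conditions. COX4I2, the lung isoform of subunit IV that is induced by low oxygen, was well above background on 4 arrays, COX7A1, the heart and muscle isoform of subunit VIIa, on 1, NDUFA4L2, known as a hypoxia-induced gene, on 1, and COX7B2, known from testis, on none. Their widely expressed counterparts COX4I1, COX7A2, NDUFA4 and COX7B were well above background on every array. COX8A was likewise well above background on all arrays, as were the 3 genes for the membrane ring of ATP synthase, ATP5G1, ATP5G2 and ATP5G3. All values below are log2 intensities of a probe or differences between them, and levels of different genes are not compared because probes differ in brightness. As RNA was taken from whole cultures, a change in the number of cells of a kind and a change in RNA per cell cannot be told apart.

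The arrays of slide 3 stood apart in these genes, though not in these alone. On each array the deviation of every member from its own mean over the 16 arrays was taken, and the median over the 74 well expressed members was −0.36 on MED-CTL replicate 3, −0.24 on p31-43 replicate 3 and −0.38 on PT-G replicate 3. These are the 3 arrays of slide 3. On the other 13 arrays it lay between −0.11 (PT replicate 1) and 0.26 (PT replicate 4). PT replicate 3, of the same run but on slide 4, stood at 0.19. It was the only array of run 3 off slide 3, and it differed in scan day and treatment as well. Slide, scan day and treatment can therefore not be told apart within run 3. Over all 24809 probes well above background on all arrays the same median lay between −0.03 and 0.03 on every array. Quantile normalization gives all arrays the same distribution of values and so largely sets this median near 0. It therefore does not show that slide 3 was like the other slides outside these genes.

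**Figure D1:**
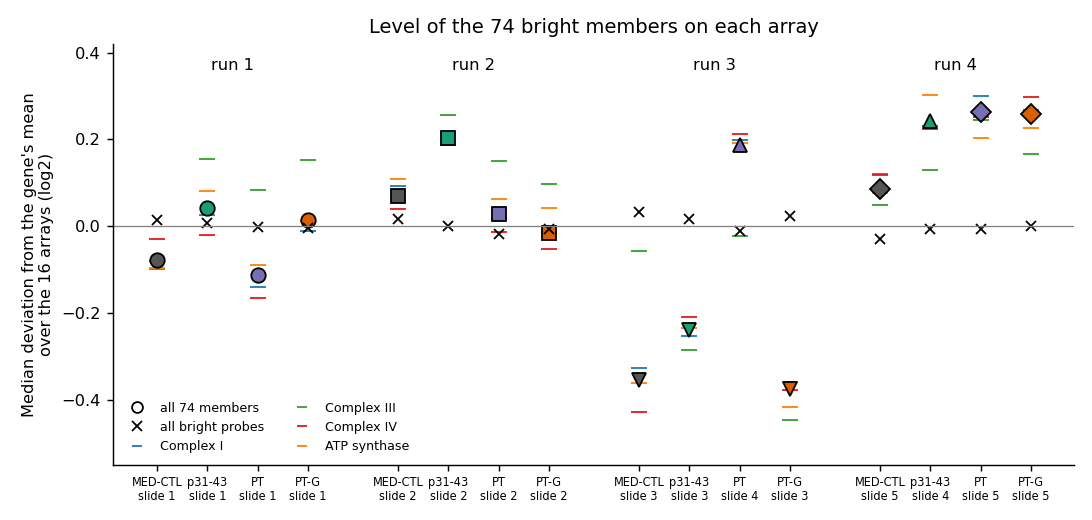
Median deviation of the 74 well expressed members from their own means over the 16 arrays (y axis, log2) on each array (x axis, in runs 1 to 4, with condition and slide). Large symbols stand for all 74 members, with their colour giving the condition and their shape the slide, dashes for the members of each complex, and crosses for all probes well above background on all arrays; the 3 arrays of slide 3 lie at −0.24 to −0.38 and the crosses near 0.

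Of the 74 members, 65 were lower on average on slide 3 than on the other 13 arrays, with a median difference of −0.37, against 47.3% of all well expressed probes being lower. In 30 members (40.5%) each of the 3 arrays of slide 3 lay below each of the 13 others, which held for 9.57% of all well expressed probes. In 4 members (5.41%) each lay above the 13 others, against 12.3% of all well expressed probes. Slide 3 thus also differed in many probes outside the members. The members lower by more than 1 on the log2 scale were 13 (17.6%, against 3.98% of all). They were COX6A2, ATP5I, NDUFA3, NDUFB1, ATP5G1, ATP5J, NDUFA13, NDUFC1, NDUFA1, NDUFA11, COX6C, NDUFS8 and NDUFB3, which apart from NDUFS8, an iron-sulphur subunit of complex I, are small accessory, coupling or membrane subunits. All 4 complexes took part, with medians of −0.37 in complex I, −0.32 in complex III, −0.37 in complex IV and −0.41 in ATP synthase. Genes of the related lists described below could differ in the same way. COX17 read 12.57, 13.09 and 12.43 on slide 3 and 13.82 to 14.52 elsewhere. SDHB and IDH3G were also lowest there. NDUFAF1 went the other way, at 14.30, 13.51 and 13.75 on slide 3 and 12.57 to 13.32 elsewhere, as did SUCLG2.

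Among nuclear core subunits of complex I the differences of slide 3 were spread on both sides of 0, with −1.10 for NDUFS8, −0.45 for NDUFV1, −0.37 for NDUFS7, −0.32 for NDUFS3, −0.20 for NDUFV2 and 0.40 for NDUFS1. The highest value of all was 0.56 for NDUFA10, an accessory subunit. In ATP synthase the catalytic β subunit ATP5B stood at 0.37 and the γ subunit ATP5C1 at 0.36, while ATP5I, the small e subunit, stood at −2.08 and ATP5G1, a gene for the c ring, at −1.47. The other c-ring genes, ATP5G2 and ATP5G3, stood at −0.98 and −0.04. On their brightest probes, members of 1 complex therefore differed between slides by unequal amounts and in both directions. Probes of 1 gene could differ in this too. Another COX4I1 probe read 14.26, 15.40 and 14.54 on slide 3 and 15.77 to 16.48 elsewhere, while the brightest stood at −0.25. The dimmer ATP5G3 probe went the other way, at 9.97, 9.72 and 10.10 on slide 3 and 8.63 to 9.10 elsewhere. The raw median intensities of the 3 arrays were 153, 268.5 and 198, and the part of the signal level in these differences was not tested.

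**Figure D2:**
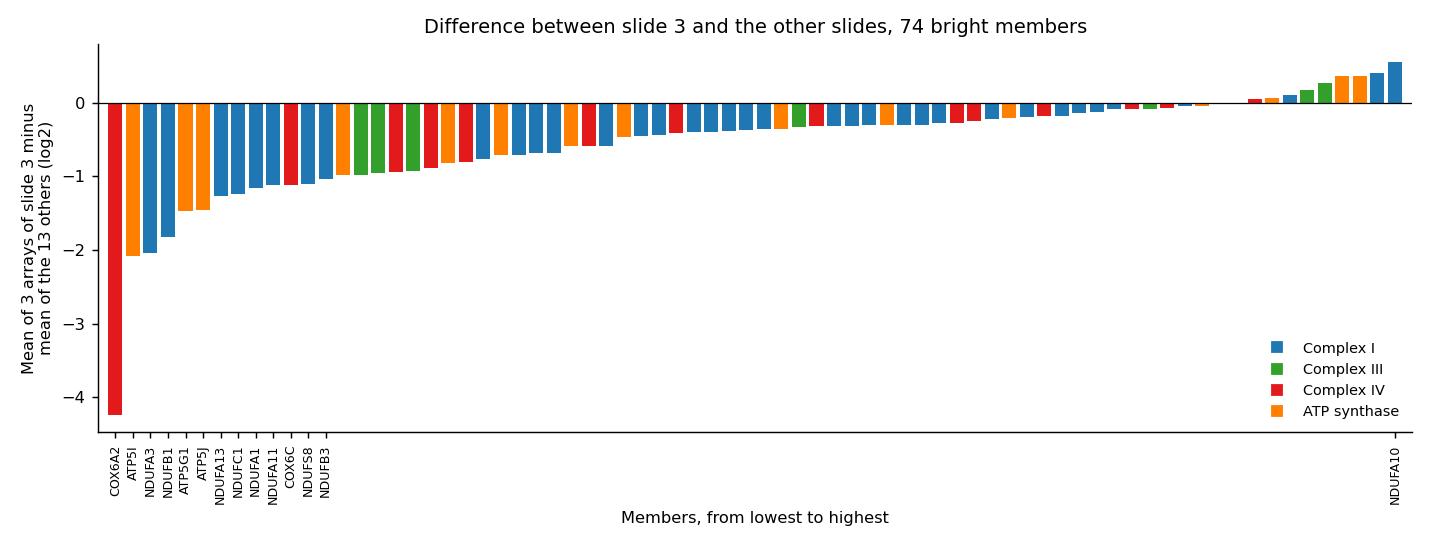
Mean log2 intensity of the 3 arrays of slide 3 minus that of the 13 other arrays (y axis) for each of the 74 well expressed members (x axis, in order of the difference), coloured by complex, with names under the 13 lowest and the highest bar. Bars start at 0; 65 bars point down, from −4.23 for COX6A2, and the highest is 0.56 for NDUFA10.

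ATP5I shows the pattern array by array. Its probe read 14.63, 14.36, 12.06 and 15.05 in MED-CTL replicates 1 to 4, and 14.53, 14.86, 13.52 and 15.11 in p31-43. It read 14.21, 14.62, 14.84 and 15.02 in PT and 14.65, 14.46, 12.42 and 15.41 in PT-G. The low values are the third replicates of all conditions but PT. NDUFA3, a single-span membrane subunit of complex I, ran the same way, with 13.56, 12.74, 10.97 and 14.37 in MED-CTL and 13.40, 13.47, 11.69 and 14.83 in PT-G. In PT it read 12.77, 13.67, 14.56 and 14.45, and in p31-43 it read 13.34, 13.91, 12.71 and 14.68. For both genes the spread within a condition was wider than any difference between conditions.

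COX6A2, the heart and skeletal muscle isoform of subunit VIa, was the extreme case. It read 15.49, 15.42, 10.49 and 16.32 in MED-CTL, 14.22, 15.93, 15.94 and 15.61 in PT, and 15.70, 15.23, 10.52 and 15.00 in PT-G. In p31-43 it read 15.03, 15.86 and 12.72 in replicates 1 to 3, and replicate 4 was marked as an outlier by the image analysis and left out of its fit. The widely expressed isoform COX6A1 lay between 16.42 and 16.96 on all 16 arrays, with a slide 3 difference of −0.07. Of the muscle markers, ACTA1 was well above background on all 16 arrays, MYH2 on 15, DES on 14 and CKM on 1. The part of these muscle genes in the COX6A2 values was not tested.

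The comparisons with MED-CTL asked whether gliadin digest, blank digest or peptide affected these genes, and those among the 3 treatments whether PT-G differed from its blank digest or from p31-43. With the study's threshold, a nominal p under 0.01 in 1 limma model of the 4 conditions, 1 of 78 members was affected by PT-G compared to MED-CTL, 1 by PT and 1 by p31-43, and it was COX5A each time, higher than in MED-CTL. Of all 40982 probes tested, 3.44% passed in PT-G, 3.64% in PT and 0.388% in p31-43, and 1.91%, 1.8% and 0.144% passed as higher. No member passed in PT-G against PT (0.0903% of all probes in either direction), in PT-G against p31-43 (3.73%) or in PT against p31-43 (3.15%). After Benjamini-Hochberg adjustment in limma no member passed an adjusted p under 0.05 in any of the 6 comparisons, where 0.944% of all probes passed in PT-G against MED-CTL, 0.82% in PT, 0% in p31-43, 0% in PT-G against PT, 1.16% in PT-G against p31-43 and 0.769% in PT against p31-43. Fits with a block gave adjusted calls, among them COX5A and ATP5S, which are described with these genes. At a nominal p under 0.05 there were 2 members in PT-G against MED-CTL, 2 in PT, 4 in p31-43, 0 in PT-G against PT, 1 in PT-G against p31-43 and 0 in PT against p31-43. Among them were COX5A in each comparison with MED-CTL, ATP5G3 in PT, ATP5G3, ATP5A1 and NDUFV1 in p31-43, and COX7A2L in PT-G against p31-43. The shares of all probes at that level were 7.98%, 8.98%, 2.15%, 0.781%, 8.57% and 7.15%.

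The 95% interval of a member had a median half-width of 0.36 on the log2 scale. It lay wholly within a 1.5-fold change in either direction for 48 of 78 members in PT-G against MED-CTL, 44 in PT, 44 in p31-43, 47 in PT-G against PT, 47 in PT-G against p31-43 and 49 in PT against p31-43. For the others, COX5A among them in the comparisons with MED-CTL, the interval did not exclude a change of that size.

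COX5A is a nuclear gene for a subunit of cytochrome c oxidase. Its brighter probe read 12.79, 13.18, 13.23 and 14.37 in MED-CTL replicates 1 to 4. In p31-43 it read 14.51, 14.56, 14.18 and 14.36, in PT 14.51, 14.47, 14.24 and 14.52, and in PT-G 14.65, 14.48, 13.55 and 14.52. MED-CTL replicates 1 to 3 lay below all treated arrays, whereas MED-CTL replicate 4 lay among them, so the conditions overlapped. COX5A was 0.91 higher in PT-G (SE 0.29, limma, adjusted p = 0.25), 1.04 higher in PT (SE 0.29, limma, adjusted p = 0.15) and 1.01 higher in p31-43 (SE 0.29, limma, adjusted p = 1.00), and the nominal p were 0.0076, 0.0030 and 0.0038. It was higher in 4 of 4 runs in PT-G and PT and in 3 of 4 in p31-43. These 3 comparisons share the MED-CTL arrays.

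In the 3 blocked fits COX5A was 0.91 to 1.16 higher in these comparisons. In PT against MED-CTL the adjusted p of COX5A in limma was 0.045 with the replicate block, 0.033 with the run block and 0.044 with the slide block. In PT-G against MED-CTL it was 0.083, 0.063 and 0.038, and in p31-43 against MED-CTL 0.91, 0.60 and 0.18.

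The second COX5A probe differed in the same direction, by less than its spread. It read 13.20, 12.88, 12.58 and 13.95 in MED-CTL and 12.93, 13.25, 13.28 and 13.97 in p31-43, a difference of 0.20 with an SE of 0.39, and it was 0.35 higher in PT and 0.14 higher in PT-G with the same SE. On this probe the fourth replicate was the highest in MED-CTL, in PT (12.83, 13.07, 14.02 and 14.09) and in PT-G (13.15, 13.13, 12.69 and 14.20). With the mean of both probes in place of the brighter one, COX5A was 0.52 higher in PT-G, 0.70 in PT and 0.61 in p31-43, with nominal p of 0.090, 0.030 and 0.053. Without MED-CTL replicate 1 the brighter probe gave 0.71, 0.84 and 0.81 with nominal p of 0.031, 0.013 and 0.016, and without MED-CTL replicate 4 it gave 1.23, 1.37 and 1.34 with adjusted p of 0.020, 0.013 and 0.24 in limma. The nominal threshold was also missed without MED-CTL replicate 2 in all 3 comparisons (0.84, 0.97 and 0.94), without MED-CTL replicate 3 in PT-G and p31-43 (0.85 and 0.96), without PT-G replicate 1, 2 or 4 (0.79, 0.85 and 0.84) and without p31-43 replicate 1 or 2 (0.97 and 0.96). With the arrays of slide 3 left out COX5A passed in all 3, at 1.10, 0.99 and 1.03.

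**Figure D3:**
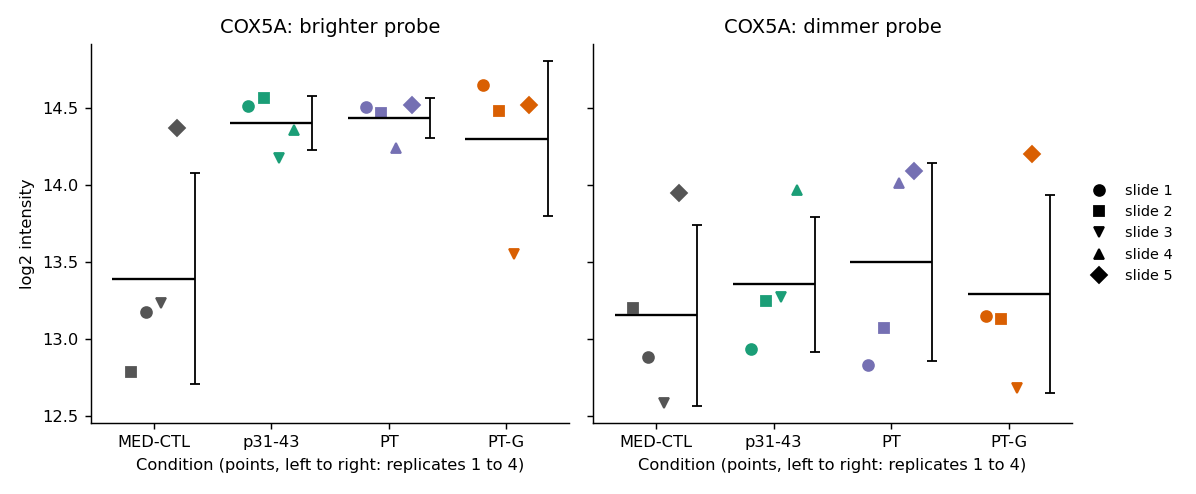
Log2 intensity (y axis) of the brighter (left) and dimmer (right) COX5A probe on each array by condition (x axis). Points are replicates 1 to 4 from left to right with their shape giving the slide, lines are means and bars the SD of 4 arrays; on the brighter probe 3 MED-CTL arrays lie at 12.79 to 13.23 below all treated arrays, and on the dimmer probe the conditions overlap.

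Below the threshold, the members as a group sat slightly above MED-CTL in PT and p31-43. The median log2 fold change over the 78 members was 0.16 in PT, with 67 members higher, and 0.15 in p31-43, with 63 higher. It was 0.04 in PT-G, with 47 higher. Over all probes these medians were −0.01, −0.00 and −0.01, and 47%, 49.6% and 47.9% of probes were higher. Against the other treatments PT-G was lower, with a median of −0.12 and 70 members lower compared to PT and a median of −0.10 and 68 lower compared to p31-43. PT and p31-43 differed by a median of 0.03, with 49 members higher in PT. No test was made over the list, and the share of probes higher was 52.9% in PT-G against PT, 49.6% in PT-G against p31-43 and 48.9% in PT against p31-43.

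**Figure D4:**
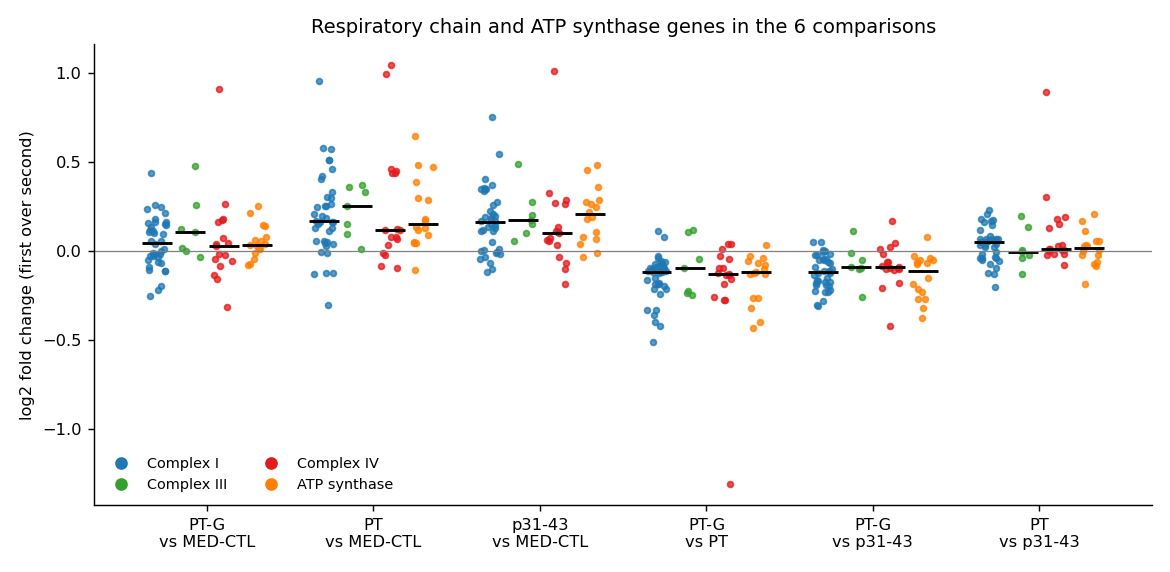
Log2 fold change (y axis, first condition over second) of each of the 78 members in the 6 comparisons (x axis), coloured by complex. Black lines are medians of each complex; most points lie within 0.5 of 0, with COX5A near 1 against MED-CTL and COX6A2 at −1.31 in PT-G against PT.

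Within runs only p31-43 against MED-CTL had a median of the same sign throughout, with 0.10, 0.12, 0.15 and 0.18 in runs 1 to 4. In run 4, however, p31-43 lay on slide 4 and MED-CTL on slide 5, so the median of that run also compares slides. In this comparison 33 of 78 members were higher in all 4 runs, against 8.51% of all probes. In PT against MED-CTL 13 members were, against 11.1% of all probes. In PT against MED-CTL the run medians were −0.02, −0.03, 0.51 and 0.17, and in PT-G against PT they were 0.09, −0.04, −0.52 and 0.04. Run 3, in which PT lay on slide 4 and its partners on slide 3, thus stood apart in both. With the slide as a block the median was 0.05 for PT against MED-CTL and −0.00 for PT-G against PT, with 39 members higher and 39 lower. For p31-43 it was 0.16 against MED-CTL, and PT-G and PT were lower than p31-43 by medians of −0.12 (71 of 78 lower) and −0.11 (68 lower), where PT against p31-43 had been 0.03 without the block. PT-G against p31-43 had run medians of −0.01, −0.20, −0.22 and 0.03, and 19 of 78 members were lower in all 4 runs, against 15.8% of all probes.

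The median of p31-43 against MED-CTL moved with single arrays and with the background treatment. Without MED-CTL replicate 3 its median fell to 0.03, without p31-43 replicate 3 it was 0.23, and with all 3 arrays of slide 3 left out it was 0.13. With background-subtracted signals it was 0.05, and PT-G against p31-43 was then −0.01. PT-G against p31-43 changed sign without PT-G replicate 3, to 0.03, and PT-G against MED-CTL did so too, to −0.07 without PT-G replicate 4 and −0.06 without MED-CTL replicate 3, while without PT-G replicate 3 it was 0.17.

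**Figure D5:**
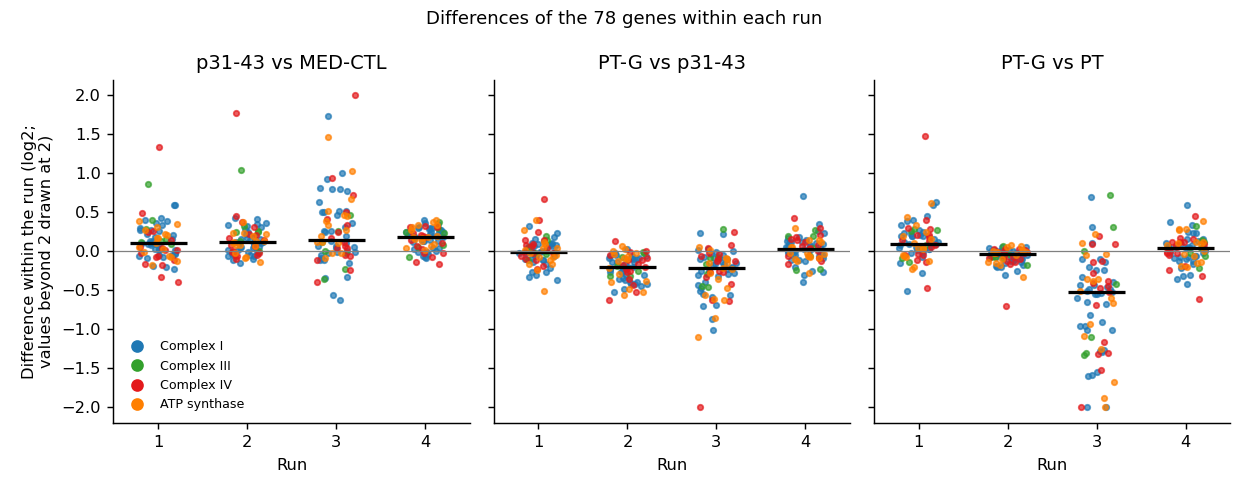
Difference of each of the 78 members between the 2 arrays of a run (y axis, log2, values beyond 2 drawn at 2) in runs 1 to 4 (x axis) for p31-43 against MED-CTL, PT-G against p31-43 and PT-G against PT. Colours give the complex and black lines the median over members; the median lies above 0 in all 4 runs for p31-43 against MED-CTL, while in PT-G against PT run 3 stands apart at −0.52.

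In complex I, none of 38 genes passed the threshold in any comparison, and the median fold change in p31-43 against MED-CTL was 0.16, with 29 higher. NDUFV1, the core subunit that binds FMN and NADH, read 14.90, 14.62, 14.48 and 15.02 in MED-CTL and 15.02, 15.32, 14.73 and 15.32 in p31-43. It was 0.35 higher in p31-43 (SE 0.15, limma, adjusted p = 1.00), higher in 4 of 4 runs. The core subunits NDUFS1 and NDUFS3 stood at −0.00 and −0.01 in the same comparison. NDUFA3 had the largest difference in complex I, 0.95 in PT and 0.75 in p31-43, with SE of 0.75 in both, and NDUFB1, another small membrane subunit, was 0.57 in PT with an SE of 0.60.

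In complex III, all 7 genes had fold changes above 0 in PT and in p31-43, with medians of 0.25 and 0.17, and none passed. UQCRC2, a core protein of the complex on the matrix side, read 13.85, 14.00, 15.00 and 14.79 in MED-CTL and 14.86, 14.89, 14.97 and 14.87 in p31-43, so MED-CTL replicates 1 and 2 lay below the rest. It was 0.49 in p31-43 and 0.47 in PT-G against MED-CTL, both with an SE of 0.23 and neither passing. UQCRC1, its partner core protein, stood at 0.05 in p31-43 and −0.04 in PT-G, and the iron-sulphur protein UQCRFS1 at 0.10 and −0.00. UQCRH, the hinge protein of the complex, passed the threshold in PT-G against MED-CTL when the arrays of slide 3 were left out, at 0.37 (SE 0.11, limma, adjusted p = 0.18). That setting was chosen after seeing the data. The second UQCRH probe read 16.05, 15.79, 16.06 and 15.69 in MED-CTL and 15.95, 15.94, 15.91 and 16.06 in PT-G, where the conditions overlapped.

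In complex IV, 1 of 17 genes passed, the COX5A described above, in each comparison with MED-CTL. COX4I1, the widely expressed subunit IV, was 0.14 in p31-43, 0.12 in PT and 0.07 in PT-G. COX6B2, the testis isoform of subunit VIb, was among the 3 members of largest change in PT against p31-43, at 0.30, with PT replicate 1 at 7.75 and the other 15 arrays between 6.83 and 7.30. The widely expressed COX6B1 differed by 0.18 in that comparison.

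On the brightest probes COX7A2L, singled out after its values were seen, was the only member whose arrays did not overlap between any 2 conditions in either direction. It read 14.53, 14.61, 14.59 and 14.61 in PT-G and 14.77, 14.83, 14.85 and 14.74 in p31-43, and all PT-G arrays lay below all p31-43 arrays. Of all probes, 2.86% were so separated in this direction. It was −0.21 (SE 0.08, limma, adjusted p = 0.44). Its second, dimmer probe read 12.60, 12.44, 11.63 and 12.52 in PT-G and 12.76, 12.82, 12.04 and 12.52 in p31-43, where the conditions overlapped.

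In ATP synthase, none of 16 genes passed, and the median in p31-43 against MED-CTL was 0.20, with 14 higher. ATP5G3, whose product is the same mature c subunit as that of ATP5G1 and ATP5G2, read 17.21, 17.32, 17.11 and 17.01 in MED-CTL and 17.37, 17.33, 17.30 and 17.41 in p31-43. It was 0.19 higher in p31-43 (SE 0.07, limma, adjusted p = 1.00) and 0.17 in PT, higher in 4 of 4 runs in both, while with background-subtracted signals the p31-43 value was −0.02. Its second probe stood at −0.13 in p31-43. ATP5A1, the α subunit, read 15.91, 15.80, 16.04 and 16.08 in MED-CTL and 16.15, 15.99, 16.31 and 16.36 in p31-43, a difference of 0.24 (SE 0.10, limma, adjusted p = 1.00) that was positive in 4 of 4 runs. The catalytic ATP5B differed by 0.04 in p31-43. ATP5G1 was 0.46 in p31-43 and 0.48 in PT against MED-CTL, with an SE of 0.46.

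With the slide as a block, 12 of 78 members passed the nominal threshold in p31-43 against MED-CTL, all higher, where 2.04% of all probes were higher. They were NDUFA1, NDUFA3, NDUFA11, NDUFB6, NDUFC2, NDUFS8 and NDUFV1 of complex I, UQCRC2 of complex III, COX5A and COX7B of complex IV, and ATP5G1 and ATP5S. The differences ran from 0.17 for NDUFC2 to 1.16 for COX5A. None passed the adjustment in limma, and the smallest adjusted p was 0.14, for ATP5S and NDUFA11. NDUFA11, an accessory membrane subunit of complex I, was 0.57 with this block (SE 0.11) and 0.54 without it (SE 0.37), so the estimate was similar and the spread smaller.

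ATP5S was the member with the smallest adjusted p under that block. It read 11.44, 11.69, 10.97 and 11.54 in p31-43, 11.49, 11.06, 10.62 and 11.38 in MED-CTL, 10.98, 11.24, 11.13 and 11.54 in PT, and 10.93, 11.31, 10.62 and 11.50 in PT-G. With the slide as a block it was −0.40 in PT-G against p31-43 (SE 0.07, limma, adjusted p = 0.0052) and −0.41 in PT against p31-43 (SE 0.07, limma, adjusted p = 0.0048), while without a block these values were −0.32 and −0.19 and neither passed. With the replicate or run block ATP5S did not pass either, with adjusted p of 0.31 and 0.14 in limma in PT-G against p31-43 and of 0.68 and 0.49 in PT against p31-43. With the slide block, NDUFA11 also passed the nominal threshold lower in PT-G than in p31-43 (5.2% of all probes), and NDUFS8 and UQCRQ lower in PT than in p31-43 (5.32%). Both of these comparisons share the p31-43 arrays.

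Genes that work with the chain were taken from 4 lists. Of 9 genes of complex II and the electron carriers, 1 passed, ETFDH, which passes electrons from fatty acid oxidation to ubiquinone. It read 10.22, 9.99, 10.29 and 9.97 in MED-CTL, 10.02, 10.21, 9.98 and 10.01 in p31-43, 10.40, 10.41, 10.42 and 10.47 in PT, and 10.46, 10.50, 10.46 and 10.68 in PT-G. All arrays of PT and PT-G lay above all arrays of the other 2 conditions. The share of all probes separated in this way is not given, so the separation is not read as particular to ETFDH. It was 0.41 higher in PT-G than in MED-CTL (SE 0.08, limma, adjusted p = 0.035) and 0.47 higher than in p31-43 (SE 0.08, limma, adjusted p = 0.014), and PT was 0.31 and 0.37 higher, with adjusted p of 0.14 and 0.064 in limma. PT-G and PT differed by 0.10.

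Of 23 assembly factors on the array, 1 was higher in p31-43 against MED-CTL and 1 lower in both digests against p31-43. C6orf125, a complex III assembly factor now called UQCC2 that the study had picked from these arrays, read 12.18, 11.84, 12.70 and 13.08 in MED-CTL and 13.47, 13.62, 12.89 and 13.55 in p31-43, and was 0.93 higher (SE 0.25, limma, adjusted p = 1.00). Since it was picked on these arrays, its value is not independent evidence. FOXRED1, a complex I assembly factor, read 10.33, 10.27, 10.36 and 10.34 in p31-43 and 10.33, 10.26, 9.92 and 10.34 in MED-CTL. It read 9.98, 10.06, 10.05 and 9.48 in PT and 9.93, 9.91, 9.88 and 9.44 in PT-G. Neither digest overlapped with p31-43, a separation that 2.86% of all probes showed in PT-G against p31-43. The share for PT against p31-43 is not given. FOXRED1 was −0.53 in PT-G against p31-43 (SE 0.14, limma, adjusted p = 0.12) and −0.43 in PT against p31-43 (limma, adjusted p = 0.30). In PT-G against MED-CTL it was −0.42, short of the threshold. Of 19 Krebs cycle genes, FH, the fumarase gene, was lower in PT-G than in p31-43 at −0.28 (SE 0.09, limma, adjusted p = 0.26), and no other passed.

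Of 16 nuclear regulators, 3 passed in some comparison. NFE2L2, a regulator of the response to oxidative stress, read 13.02, 12.96, 13.04 and 13.44 in MED-CTL and 13.66, 13.61, 14.00 and 14.19 in PT-G, and was 0.75 higher (SE 0.16, limma, adjusted p = 0.043). It was 0.58 higher in PT than in MED-CTL and 0.52 higher in PT-G than in p31-43 (limma, adjusted p = 0.15 and 0.19). MYC, a growth regulator, read 14.30, 14.25, 14.65 and 13.80 in MED-CTL and 14.88, 14.97, 16.20 and 15.23 in PT-G, and was 1.07 higher in PT-G than in MED-CTL and 1.15 higher than in p31-43 (SE 0.27, limma, adjusted p = 0.096 and 0.057). In the blank digest PT, MYC read 15.16, 14.83, 15.15 and 14.69, all above MED-CTL, a separation whose share of all probes is not given. There it was 0.71 higher than in MED-CTL, short of the nominal threshold. GABPA was −0.48 in PT against MED-CTL (SE 0.14, limma, adjusted p = 0.21).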

How the data were processed

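RNA of each culture was hybridised in 1 colour (Cy3) to an Agilent 4x44K whole human genome array. The deposited scanner files hold each spot's foreground and background intensity from Agilent Feature Extraction, per the file headers. The authors took median foreground signals without background correction and normalized them between arrays by quantiles in limma, and the deposited log2 table holds the result. The same steps were repeated here from the scanner files (limma 3.58.1, R 4.3.3), leaving out 1639 control spots per array and spots marked as outliers, averaging the spots of a probe and keeping probes with at least 3 unmarked arrays per condition. One linear model of 4 groups of 4 arrays was fitted over 40982 probes with moderated 2-sided tests, a nominal p threshold of 0.01 and Benjamini-Hochberg adjusted p. The arrays came from separate experiments with cells 1 to 2 passages apart, and their number limits the precision.

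The members and lists were chosen with earlier results of these data known. Genes were named if they passed the nominal threshold or stood on set lists of subunits and isoforms. Also named were the 3 largest changes of a comparison among members well above background on all arrays. COX7A2L and genes of the slide pattern were named after their values were seen. Certain genes that count in the totals are not reported here by name. Other lists were complex II and electron carriers, assembly factors, Krebs cycle, nuclear regulators and cell type markers. Same-numbered arrays shared deviations from their group means, with correlations above 0.1 in all 4 pairs in 4 of 6 comparisons. In PT against MED-CTL (−0.02 to 0.41) and PT-G against PT (0.04 to 0.69) they did not in every pair. Runs were read from dates in file names. Alternatives were other background corrections and scalings, the deposited table, a filter on dim probes, outlier spots kept, blocks for replicate number, run or slide, fits of 2 groups only, the mean of a gene's probes, each array left out, and the arrays of slide 3 left out, the last chosen after seeing the data. The fits were tested on simulated data. Sequences and symbols come from RefSeq tables of GRCh38.p14, and figures were drawn with matplotlib 3.10.9.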

Additional observations from a re-analysis of the deposited data

Results flagged for a closer look

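In 14 of 143 groups of 4 arrays, 1 array stood apart from the other 3 by a share of the group's range above Dixon's 95% critical value, where chance gives about 1 in 20. They fell in 11 genes, and 6 of the 14 cases lay on slide 3. On that slide, COX6A2 read 10.49 in MED-CTL replicate 3 (the others 15.42 to 16.32) and 10.52 in PT-G replicate 3 (the others 15.00 to 15.70), and COX5A read 13.55 in PT-G replicate 3 (14.48 to 14.65). In the opposite direction, ATP5B read 15.84 in PT-G replicate 3 (15.46 to 15.52), NDUFS1 15.02 in PT-G replicate 3 (14.56 to 14.62), and GABPA 8.93 in p31-43 replicate 3 (8.61 to 8.63).

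On the other slides, ATP5A1 read 16.42 in PT replicate 3 (16.01 to 16.07), COX6B2 7.27 in PT-G replicate 1 (7.05 to 7.07) and UQCRC2 14.81 in PT-G replicate 2 (14.90 to 14.91). FOXRED1 was low in run 4, at 9.48 in PT replicate 4 (9.98 to 10.06) and 9.44 in PT-G replicate 4 (9.88 to 9.93). ETFDH read 10.21 in p31-43 replicate 2 (9.98 to 10.02), GABPA 8.48 in PT replicate 1 (8.20 to 8.22) and NFE2L2 13.44 in MED-CTL replicate 4 (12.96 to 13.04).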

How the results depend on the processing

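The number of members past the nominal threshold was 1 in each comparison with MED-CTL and 0 in the others. In PT-G against MED-CTL it was 0 with background-subtracted signals, with the 2 groups only and with the mean of a gene's probes, 2 with the replicate, run or slide block, 2 with the arrays of slide 3 left out (chosen after seeing the data) and 0 to 2 without single arrays. In PT against MED-CTL it was 0 with the mean of a gene's probes and 0 to 1 without single arrays. In p31-43 against MED-CTL it was 0 with background-subtracted signals, the 2 groups only and the mean of a gene's probes, 2 with the replicate block, 12 with the slide block, 2 with slide 3 left out and 0 to 2 without single arrays. In PT-G against p31-43 it was 1 with the replicate block, the run block and the 2 groups only, 2 with the slide block and 0 to 1 without single arrays. In PT against p31-43 it was 3 with the slide block and 1 with the mean of a gene's probes. In PT-G against PT it stayed at 0 in every alternative run. With slide 3 left out, 1756 of all 40982 probes passed in PT-G against MED-CTL and 277 in p31-43 against MED-CTL. For the other alternatives, apart from some slide-block fits described above, the shares of all probes are not given. Those counts are therefore not read as a result about these genes. With the replicate number as a block, ATP5A1 was added in p31-43 against MED-CTL, but it did not pass with the run as a block. Replicate number and run group MED-CTL replicates 1 and 2 with different arrays. The causes were not tested.

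Directions turned for p31-43 against MED-CTL with background-subtracted signals in ATP5G3 (−0.02), COX4I1 (−0.077), UQCRC1 (−0.036) and UQCRFS1 (−0.0046), with median scaling in NDUFS1 (0.067) and NDUFS3 (0.031), and with slide 3 left out in the same 2 genes (0.015 and 0.0092). With the slide block, and with slide 3 left out in turn, they turned for PT-G against PT in ATP5I (0.12 and 0.17) and NDUFA3 (0.16 and 0.038), for PT against MED-CTL in COX6A2 (−0.27 and −0.32), and for PT against p31-43 in COX6A2 (−0.84 and −0.017) and NDUFB1 (−0.37 and −0.10). Without single arrays, values ran from −0.061 to 0.159 for ATP5B, −0.087 to 0.102 for NDUFS1, −0.072 to 0.065 for NDUFS3, −0.015 to 0.121 for UQCRC1 and −0.0019 to 0.213 for UQCRFS1 in p31-43 against MED-CTL. They ran from −0.632 to 0.036 for ATP5G1 and −1.330 to 0.774 for COX6A2 in PT-G against p31-43, and from −0.826 to 0.169 for ATP5I and −1.008 to 0.038 for NDUFA3 in PT-G against PT. For NDUFA3 in PT-G against MED-CTL they ran from −0.208 to 0.991, for COX6A2 from −0.319 to 1.624 in PT against MED-CTL and −0.017 to 1.550 in PT against p31-43, and for NDUFB1 from −0.105 to 0.473 in PT against p31-43. Dim probes such as COX7B2, not well above background, bound what these arrays can show.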
